A study of Mus musculus with 5 samples.

Results

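The fatty acid uptake and binding proteins are 10 genes whose products release, take up or bind fatty acids and lipoprotein lipids, or control their release. They were chosen by symbol (Fabp3, Fabp4, Fabp5, Fabp7, Cd36, Lpl, Angptl4, Slc27a1, Slc27a4 and Scarb1), and all 10 were found among the 54699 genes of the deposited table. RNA was sequenced from 5 cultures of B16F10, a pigmented mouse melanoma line, grown with 10% fetal bovine serum after infection with a lentivirus. On day 8 cells made to express mouse Myod1, the muscle-determining transcription factor, or mouse Pparg, the nuclear receptor that drives fat cell formation, were taken beside wild type cells with the empty expression vector. On day 7 cells in which a short hairpin RNA (shSetdb1) lowered Setdb1, a histone H3 methyltransferase, were collected beside wild type cells with the empty knockdown vector (shCtrl). Every library, controls included, comes from infected cells, and the 3 treated cultures were taken once their appearance had changed. The labels name neither the promoters of the vectors nor whether lines were clones or pools. Each group has 1 library, so differences between conditions could not be checked against replicates and carry no p-values.

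Fatty acids are poorly soluble in water, and cells handle them with dedicated proteins at each step. Lipoprotein lipase (Lpl) frees fatty acids from circulating triglyceride, and Angptl4 is a secreted inhibitor of that enzyme. The scavenger receptor Cd36 and the acyl-CoA synthetase-like transporters Slc27a1 and Slc27a4 (FATP1 and FATP4) promote uptake at the membrane, while Scarb1 (SR-BI) takes cholesteryl ester from high density lipoprotein. Inside the cell small binding proteins of the Fabp family ferry the ligand: Fabp3 is the heart and muscle form, Fabp4 the form of fat cells and macrophages, Fabp5 the epidermal form and Fabp7 the form of brain and neural crest derived cells. Fabp4, Cd36, Angptl4 and Lpl are textbook targets of Pparg in adipocytes.

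The 4 Fabp genes are relatives, and how far their sequences differ bears on whether reads of 1 can be counted for another. Their coding sequences are 399 to 408 bases long and agree at 57.2% (Fabp5 with Fabp7) to 67.4% (Fabp3 with Fabp4) of aligned bases. Of the 399 alignment columns without a gap, 147 (36.8%) hold the same base in all 4. The stretch of 60 coding bases with the most shared positions, 34 of 60, is shown here with those positions in capitals, 5′ to 3′, from the GENCODE M21 transcripts. It covers coding bases 49 to 108 of Fabp3, Fabp4 and Fabp7 and 55 to 114 of Fabp5.
Fabp3: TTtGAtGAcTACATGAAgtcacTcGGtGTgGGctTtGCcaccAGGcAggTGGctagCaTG
Fabp4: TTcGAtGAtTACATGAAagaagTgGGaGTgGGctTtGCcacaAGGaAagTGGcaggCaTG
Fabp5: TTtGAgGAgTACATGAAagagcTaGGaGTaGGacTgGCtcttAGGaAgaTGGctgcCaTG
Fabp7: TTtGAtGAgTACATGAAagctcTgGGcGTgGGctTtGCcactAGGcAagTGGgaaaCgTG
No run of identical bases shared by 2 of the 4 coding sequences was longer than 20 bases (Fabp3 with Fabp7). By contrast the processed pseudogene Fabp3-ps1 matches the Fabp3 coding sequence at 99.3% of 402 bases, with an identical run of 256, so reads of these 2 loci can be exchanged. Fabp5 has 5 processed pseudogenes that share runs of 25 bases with its principal transcript, led by Gm6166 (29.5% of such runs) and Gm14328 (19.3%). No other gene of the GENCODE M21 transcripts shared such a run with Fabp4 or Fabp7.

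RefSeq's promoter table (GRCm38.p6) has entries for 5 of the 10 genes: Cd36, Fabp3, Fabp7, Slc27a1 (3 start sites) and Slc27a4. The windows are the 250 bases before each RefSeq start site, and these sites do not all lie at the start of the gene as GENCODE M21 draws it. The Fabp3 window (chr4:130308488-130308737, + strand) reaches 143 bases into the first exon of Fabp3 there and is not printed. The Cd36 window (chr5:17835897-17836146, − strand) covers no M21 exon of Cd36 and lies 52.7 kb inside its annotated span, before an internal start site. It is shown because Cd36 differed most among the genes whose window holds a nuclear receptor hexamer AGGTCA, which capitals mark and which reads on the other strand.
Cd36: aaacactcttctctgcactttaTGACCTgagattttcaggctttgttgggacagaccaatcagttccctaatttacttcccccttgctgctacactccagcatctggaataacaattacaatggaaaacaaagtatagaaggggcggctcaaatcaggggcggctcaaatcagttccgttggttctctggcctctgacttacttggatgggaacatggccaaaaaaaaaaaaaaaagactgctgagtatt
The complete PPAR element AGGTCANAGGTCA, searched on both strands, was in none of the 7 windows and is in 0.0335% of the 32851 windows of the table. A lone AGGTCA, which is also each part of that element, was present for Cd36 and Fabp7, as in 14.0% of all windows. An E-box, the kind of site that Myod1 binds, was present in all 7 windows, as in 66.2% of all. These are letter matches in a short window and not measured binding.

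The libraries held between 16214802 and 18300670 reads assigned to genes, recovered from the deposited FPKM (fragments per kilobase of gene length, scaled to the size of the library). Intervals are 95% Clopper-Pearson intervals of a gene's reads among all reads of the library, or exact conditional intervals for a ratio of 2 libraries, and cover counting error only. The introduced or targeted genes followed the labels: Myod1 had an FPKM of 260 and Pparg of 44.4 in their own libraries and 0 reads in the other 4, and Setdb1 stood at 0.867 in the knockdown against 9.82 in its control. All 8 melanocyte markers examined were at an FPKM of at least 1 in every library, with a summed FPKM of 2308 with Pparg expression, 3306 with Myod1 expression and 7816 to 9098 in the other 3. All 8 skeletal muscle markers were at that level with Myod1 expression (summed FPKM 25618), but only Des was in the other 4 (5.20 to 15.6). Of 8 adipocyte markers only Plin1 reached an FPKM of 1 with Pparg expression (1.25), and Lep, Cebpa, Retn and Adrb3 had 0 reads there.

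The leading Fabp gene differed between libraries. In both empty vector libraries Fabp5 was nearly the only Fabp of the 4, while Fabp4 led in the Pparg library and Fabp3 in the Myod1 library. Levels were compared between genes per length of the principal transcript, for the reason given below, and the bar plot of the make-up shows the shares. That scale takes all reads of a gene as coming from this transcript, which was not tested. Fabp5 held 98.5% of the summed level of the 4 genes in the empty expression vector library and 98.1% in the empty knockdown vector library. With Pparg expression Fabp4 held 76.8%, Fabp5 19.1% and Fabp3 3.75%. With Myod1 expression Fabp3 held 85.0% and Fabp5 14.8%, and Fabp4 had no read. After Setdb1 knockdown Fabp5 still held 80.3%, with Fabp3 at 16.3% and Fabp7 at 3.38%. By deposited FPKM, whose lengths weigh Fabp4 and Fabp5 down, Fabp5 held 54.6% and Fabp3 40.1% after Setdb1 knockdown. On that scale Fabp4 held 62.3%, Fabp5 21.4% and Fabp3 15.3% with Pparg expression, Fabp3 95.3% with Myod1 expression, and Fabp5 96.2% and 95.2% in the controls, so the leading gene of each library was the same on both scales. The sum itself was 316 in the empty expression vector library, 1001 with Pparg expression and 631 with Myod1 expression by transcript length, and 89.6, 246 and 562 by deposited FPKM, so the order of the Pparg and Myod1 libraries depends on the length used. After Setdb1 knockdown it was 37.8 against 243 in its control, or 15.4 against 69.2 by deposited FPKM, the lowest of the 5 on both scales. Counted as plain reads the leading gene took 75.6% with Pparg expression and 82.5% with Myod1 expression.

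**Figure D1:**
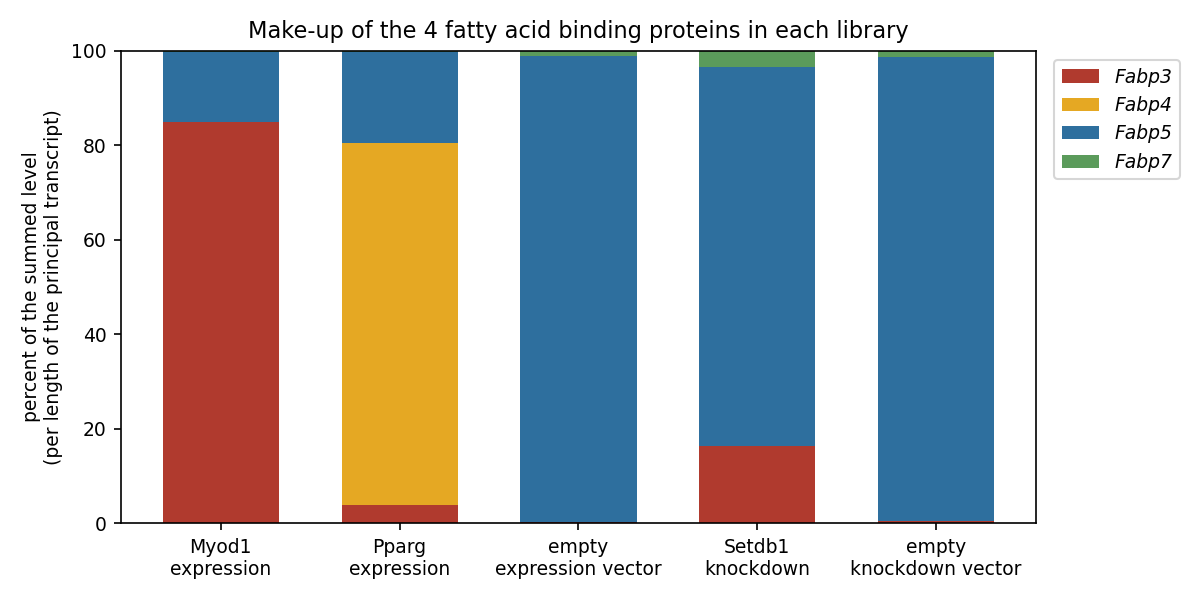
Share of the summed level of Fabp3, Fabp4, Fabp5 and Fabp7 (percent, vertical axis) in each of the 5 libraries, with levels per length of the principal transcript. Fabp5 fills 98.5% and 98.1% of the bar in the empty vector libraries, Fabp4 76.8% with Pparg expression and Fabp3 85.0% with Myod1 expression.

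The length used for a gene changes how its level ranks against others. For 9 of the 10 genes the deposited length equals the union of all annotated exons in GENCODE M21 (Angptl4 has 3286 against 3541 bases). For Fabp4 that union is 4489 bases, its whole span with introns, while the principal protein-coding transcript has 896, so the deposited FPKM is 5.01 times lower than one per transcript length. The factor was 3.61 for Fabp5, 3.37 for Scarb1, 2.55 for Lpl, 2.09 for Slc27a1 and 1.55 for Fabp7, and between 0.993 and 1.09 for the other 4. By deposited FPKM the highest level of any of the 10 genes was that of Fabp3 with Myod1 expression (536), above Fabp4 with Pparg expression (153). Per transcript length the order turned, with 769 for Fabp4 and 536 for Fabp3. Ratios between libraries for 1 gene do not depend on its length, apart from the pseudocount.

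**Figure D2:**
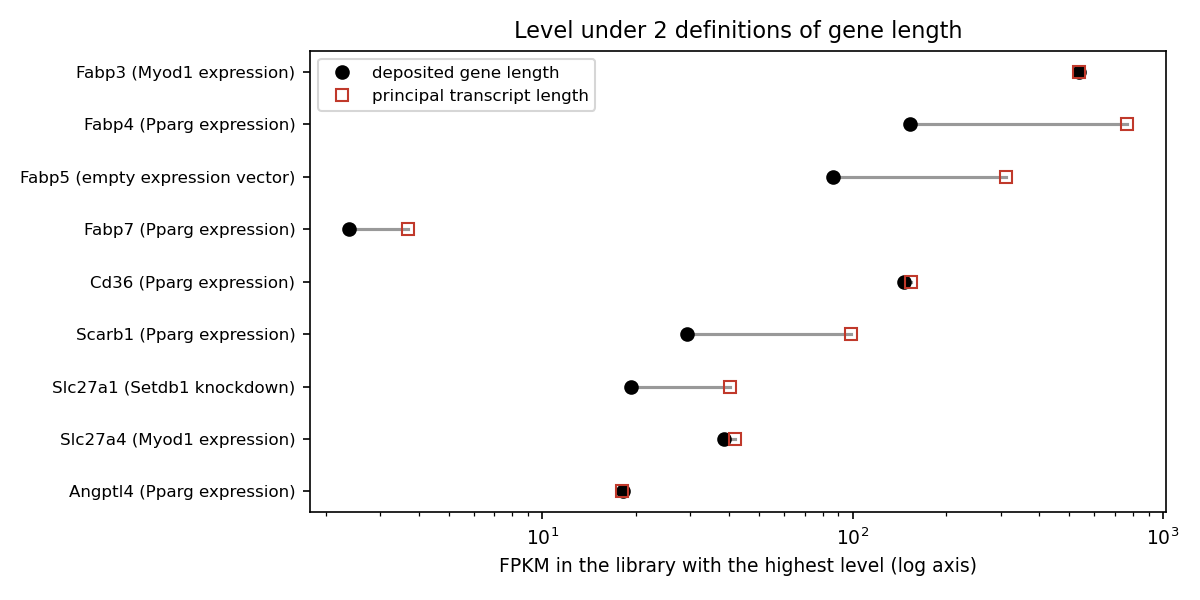
Level of each gene in the library where it was highest (FPKM, log axis) by the deposited gene length (filled circles) and by the length of the principal transcript (open squares). Fabp4 moves from 153 to 769 and Fabp5 from 86.2 to 311, while Fabp3 stays at 536. Lpl had 0 reads and is left out.

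Differences between libraries are given as log2 ratios of FPKM + 1, treated minus control, and the limit for a count was 2-fold. Genes entered the count where any of the 5 values reached an FPKM of 1. Of the 10 genes 9 met that minimum, Lpl being the exception. Fabp4, Cd36 and Angptl4 met it only through the Pparg library, where a high value had to give a difference. With Pparg expression 4 of the 10 were at least 2-fold higher (Fabp4, Cd36, Fabp3 and Angptl4) and 0 lower, and all 4 were also past the limit against the empty knockdown vector library. Among the 12842 genes compared 6.52% passed the limit in either direction, 4.22% as higher and 2.3% as lower, and 4.19% passed it against both controls. With Myod1 expression 1 gene was higher (Fabp3) and 2 were lower (Fabp5 and Slc27a1), of which Fabp3 and Fabp5 were past the limit against both controls. Of all genes 21.6% passed there, 14.0% as higher and 7.55% as lower, and 16.3% against both controls. Dividing by the column sum turned that split of 1798 higher and 970 lower genes into 1238 and 1910, and kept the calls of Fabp3, Fabp5 and Slc27a1. After Setdb1 knockdown 2 were higher (Fabp3 and Slc27a1) and 1 lower (Fabp5), of which again Fabp3 and Fabp5 were past it against both controls. Of all genes 19.7% passed there, 9.34% as higher and 10.3% as lower, and 13.4% against both controls, so passing the limit was common in both comparisons and the counts of 3 set the 10 genes apart in neither. Between the 2 empty vector libraries, which differ in vector and day, 1 gene was lower with the knockdown vector (Slc27a1), where 2.67% of all genes passed, 1.23% as higher and 1.44% as lower. The Myod1 and Pparg comparisons share their control library, so their values are not independent.

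**Figure D3:**
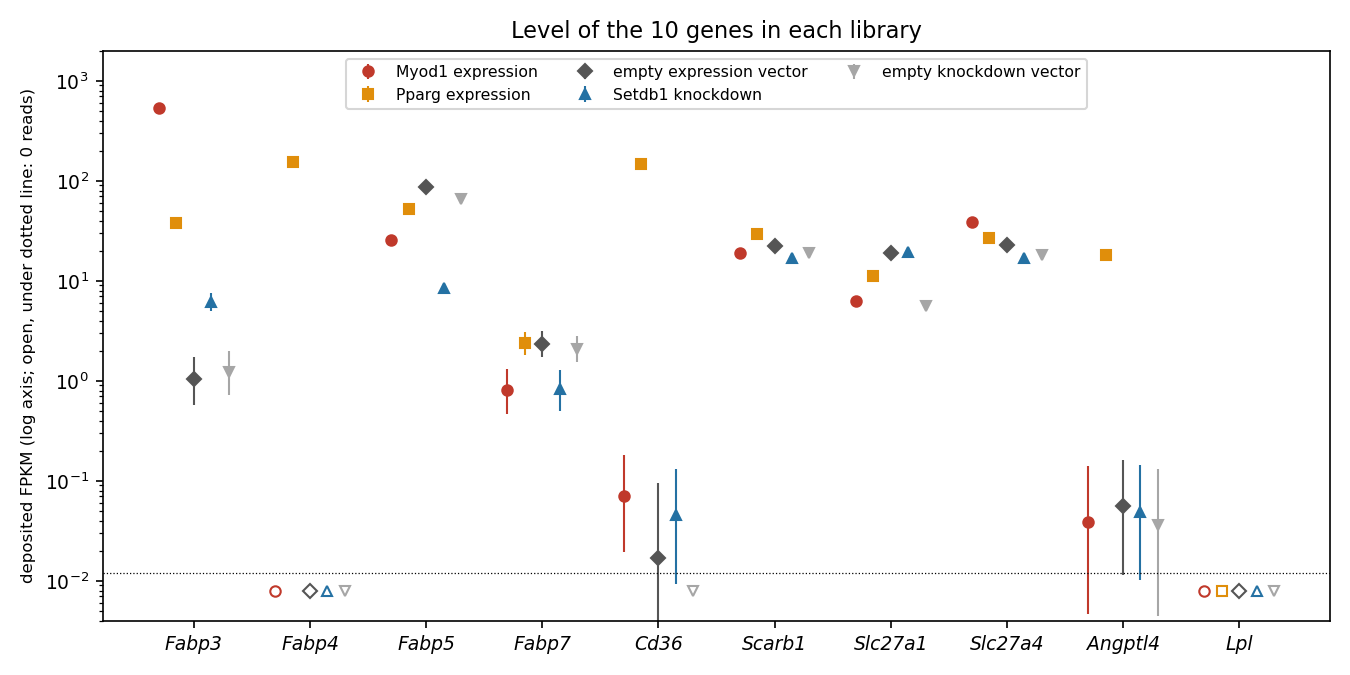
Deposited FPKM of the 10 genes (log axis) in each library, with 95% counting intervals as bars and open symbols under the dotted line for 0 reads. Fabp4, Cd36 and Angptl4 stand at 153, 146 and 18.2 with Pparg expression and at most at 0.0709 in the other 4 libraries, and Lpl has no read in any.

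Fabp4, the cytosolic carrier of fat cells (ENSMUSG00000062515, GRCm38 chr3:10204088-10208576, − strand), had 13207 reads and an FPKM of 153 (interval 151 to 156) with Pparg expression. It had 0 reads in each of the other 4 libraries, where 3 reads would be an FPKM of 0.0361 to 0.0425. Against 3 reads in the empty expression vector library it was 3752-fold higher, so the Pparg library stood apart from all others. The upper interval bound in that control was an FPKM of 0.0503, above the 0.0409 of 3 reads, so the ratio may be lower. Fabp4 lies in a row of Fabp genes on chromosome 3. Fabp9, 6.81 kb away, had 1 read in the Pparg library, Pmp2, 20.2 kb away, and Fabp12, 35.6 kb away on the other side, had 0 and 1. Fabp5, 187 kb away, was lower than in the control. The high value was thus seen for Fabp4 and for none of the 4 other Fabp family genes of the row.

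Cd36, the fatty acid translocase (ENSMUSG00000002944, chr5:17781690-17888801, − strand), had 10058 reads and an FPKM of 146 (143 to 149) with Pparg expression. The other libraries held 4 reads with Myod1 expression, 1 in the empty expression vector control, 3 after Setdb1 knockdown and 0 in the empty knockdown vector control. The ratio to the control with 1 read was 8572 with an interval of 1538 to 338607, and against 3 reads of the other control it was 2925-fold higher. The upper interval bound in the other control was an FPKM of 0.0615, above the 0.0500 of 3 reads, so that ratio may be lower. With controls at 1 and 0 reads the log2 ratios of Cd36 and Fabp4 (7.18 and 7.27) reflect their levels in the Pparg library over the added 1, and were 10.3 and 10.6 with a pseudocount of 0.1. Macrophages and endothelium also carry Cd36 and Fabp4. In the Pparg library 8 macrophage markers had a summed FPKM of 2.66, with Ptprc, Csf1r, Itgam and Tyrobp at 0 reads. The sum was 14.2 in its control and 6.50 in the other control. The 8 endothelial markers summed to 6.52 in the Pparg library against 6.38 in its control, nearly all from Egfl7 (6.15 and 6.17). They summed to 3.96 in the other control, and Cdh5, Kdr, Tie1 and Emcn had 0 reads in the Pparg library. Fibroblast markers summed to 2.90 to 11.1 over the 5 libraries, with Dcn, Lum and Thy1 at 0 reads in all. In bulk RNA more cells with a transcript and more transcript per cell cannot be told apart.

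Angptl4, the secreted inhibitor of lipoprotein lipase (ENSMUSG00000002289, chr17:33773750-33781575, − strand), had 1146 reads and an FPKM of 18.2 (17.2 to 19.3) with Pparg expression and 2 or 3 reads in each of the other 4 libraries. Its ratio to the control was 326 (111 to 1581). The log2 ratio of 4.18 is set by the added 1 over a control of 3 reads and was 6.87 with a pseudocount of 0.1. Lpl itself, the enzyme that Angptl4 inhibits, had 0 reads in all 5 libraries over a deposited length of 10478 bases. Taking 3 reads as the most that a count of 0 allows, its FPKM was at most 0.0149 with Pparg expression and 0.0182 with Myod1 expression, the highest such limit (0.0184 and 0.0224 as upper bounds of the interval). The inhibitor was therefore measured with Pparg expression while its enzyme was not detected at this depth. Of 14 further genes that act on or with Lpl, 7 had at most 3 reads in every library, among them Gpihbp1, its anchor on capillaries, and Apoc2, its cofactor. The lipase maturation factors were present in all libraries, Lmf1 with an FPKM of 3.25 to 4.60 and Lmf2 with 27.6 to 43.0, and neither passed the limit in a comparison. The protease Furin was higher with Myod1 expression (33.1 against 11.8, log2 ratio 1.41) and after Setdb1 knockdown (22.8 against 9.50, log2 ratio 1.18, but 0.89 against the other control). The medians over the 4 compared were -0.28 for Myod1, -0.21 for Pparg and 0.27 for Setdb1. Against the other control they were -0.02, 0.15 and 0.00, so the Pparg median changed sign and the other two were near 0, and over all 14 genes they were -0.02, 0.00 and 0.00.

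Fabp3, the carrier of heart and skeletal muscle (ENSMUSG00000028773, chr4:130308595-130315463, + strand), was the 1 gene of the 10 past the limit in all 3 comparisons. Its FPKM was 536 (523 to 548) in the Myod1 library, 37.6 (34.6 to 40.7) in the Pparg library and 6.17 (4.99 to 7.55) after Setdb1 knockdown. In the controls it stood at 1.04 (0.569 to 1.75, from 14 reads) and 1.24 (0.720 to 1.98, from 17 reads), so all 3 treated libraries lay above both. The ratios to the own control were 514 (306 to 942), 36.1 (21.3 to 66.4) and 5.00 (2.96 to 8.94), and the log2 ratios 8.04, 4.24 and 1.68. Against the other control the log2 ratios were 7.91, 4.11 and 1.81. The value after Setdb1 knockdown rests on 94 reads. The pseudogene Fabp3-ps1 followed with 25 reads with Myod1 expression, 8 with Pparg expression, 1 after knockdown and 0 in both controls, which is 0.359%, 1.33% and 1.05% of the reads of both loci. Zcchc17 and Gm10570 overlap the ends of Fabp3 on the other strand, and whether the counting used strand is not given in the sources used here. Zcchc17 had an FPKM of 12.9 with Myod1 expression against 8.32, and Gm10570 had 4 reads against 0.

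Fabp5, the epidermal carrier (ENSMUSG00000027533, chr3:10012548-10016607, + strand), was lower in the treated libraries. Its FPKM was 86.2 (83.8 to 88.6) with the empty expression vector and 65.9 (63.9 to 68.0) with the empty knockdown vector. Treated values were 52.8 (51.1 to 54.6) for Pparg, 25.9 (24.6 to 27.3) for Myod1 and 8.41 (7.72 to 9.14) for the Setdb1 knockdown, so all 3 treated libraries lay below both controls. With Setdb1 knockdown 12.8% of the control value remained (7.84-fold lower, interval 7.17 to 8.58), and 9.76% of the other control. With Myod1 expression 30.0% remained (3.33-fold lower, 3.14 to 3.53), or 39.3% of the other control. With Pparg expression 61.3% remained, or 80.2% of the other control, and the log2 ratio of -0.70 did not pass the limit. The controls themselves differed by -0.38 on this scale. The pseudogene Gm6166 took 0.820% to 1.26% of the reads of both loci and Gm14328 at most 0.279%, and the other 3 had 0 reads. Fabp7, the brain form (ENSMUSG00000019874, chr10:57784881-57788450, + strand), was scarce throughout, with 16 to 57 reads. Its FPKM was 2.35 and 2.11 in the controls, 2.38 with Pparg expression, 0.814 with Myod1 expression and 0.821 after Setdb1 knockdown. The ratios in the last 2 were 2.89-fold (1.61 to 5.45) and 2.56-fold (1.47 to 4.65) lower, but the log2 ratios of -0.89 and -0.77 missed the limit, which the added 1 blunts at such values. With a pseudocount of 0.1 both passed it, and the Myod1 value did so after division by the column sum (-1.07).

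**Figure D4:**
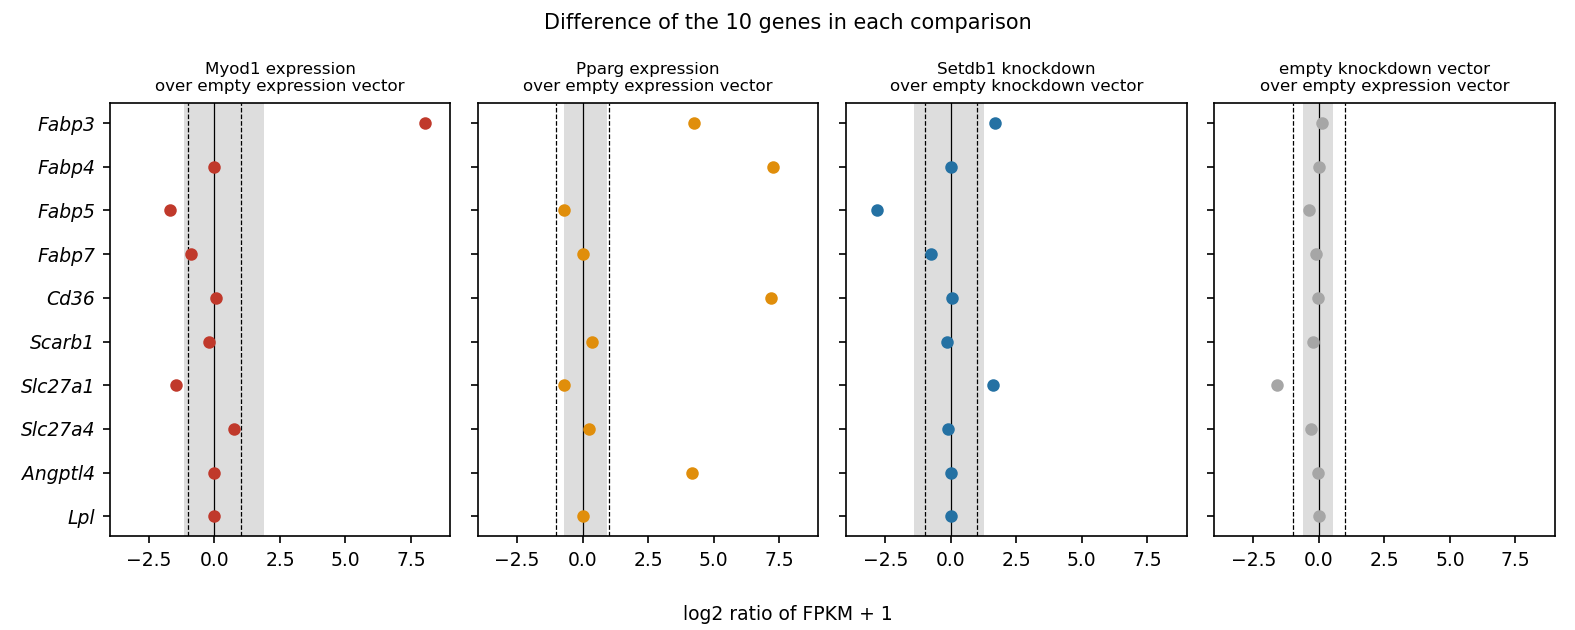
Log2 ratio of FPKM + 1 (horizontal axis) for each of the 10 genes in the 3 treated comparisons and between the 2 empty vector libraries, with dashed lines at 2-fold and grey bands from the 5th to the 95th percentile of the 12842 genes compared. Fabp3 lies right of the dashed line in all 3 treated comparisons (8.04, 4.24 and 1.68), Fabp5 left of it in 2 (-1.70 and -2.83), and Slc27a1 also passes between the controls (-1.59).

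Of the other membrane proteins Slc27a1 passed the limit in 2 comparisons against its own control, and Slc27a4 and Scarb1 in none. Slc27a1 (FATP1, ENSMUSG00000031808, chr8:71568882-71587302, + strand) had an FPKM of 18.8 (17.9 to 19.7) with the empty expression vector but 5.59 (5.13 to 6.08) with the empty knockdown vector, a 3.37-fold difference between controls (3.06 to 3.71). Treated values were 6.23 (Myod1), 11.1 (Pparg) and 19.3 (Setdb1 knockdown), so 2 lay between the controls and the knockdown value lay at the upper one. The log2 ratios of -1.45 with Myod1 expression and 1.62 after Setdb1 knockdown became 0.14 and 0.04 against the other control, so neither call holds against both controls. With Pparg expression the log2 ratio was -0.71 against its own control and 0.88 against the other (1.99-fold higher, 1.80 to 2.21), so its direction turned with the control. Slc27a4 (FATP4, ENSMUSG00000059316, chr2:29802634-29817522, + strand) ranged from 16.9 after Setdb1 knockdown to 38.5 with Myod1 expression, with 22.6 and 18.0 in the controls and 26.8 with Pparg expression. The Myod1 ratio of 1.71 (1.60 to 1.82) did not pass the limit, though it did against the other control (2.14, log2 ratio 1.06). Scarb1 (SR-BI, ENSMUSG00000037936, chr5:125277087-125341094, − strand) was the steadiest detected gene, from 16.9 after Setdb1 knockdown to 29.3 with Pparg expression. The Pparg value was 1.30 times its control (1.25 to 1.36) and 1.55 times the other control, and no comparison passed the limit.

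Other members of the same protein families were mostly silent. All 6 other fatty acid binding proteins (Fabp1, Fabp2, Fabp6, Fabp9, Fabp12 and Pmp2) had at most 1 read in any library. Of the 4 other Slc27 transporters, Slc27a6 was lower with Myod1 expression (0.435 against 3.79, log2 ratio -1.74) and after Setdb1 knockdown (1.67 against 5.13, log2 ratio -1.20, but -0.84 against the other control). Slc27a3 stayed between 0.675 and 1.35, and Slc27a2 and Slc27a5 had at most 3 reads. Of 6 retinoid binding relatives, 5 were in the table and 1 was compared: Crabp2, a carrier of retinoic acid, had 0 reads with Myod1 expression against an FPKM of 1.44.

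The next steps of fatty acid handling were followed in lists put together with earlier results of these data known, and their counts are a description beside the background shares above. Acyl-CoA synthetases and binding proteins trap fatty acids as thioesters. With Pparg expression 1 of 10 was higher (Acsbg1, 14.4 against 2.24) and 1 lower (Acsl3, 15.3 against 32.6, log2 ratio -1.04 but -0.58 against the other control). With Myod1 expression 2 were higher, Acsl1 (9.43 against 3.84) and Acsl6 (3.57 against 0.105). After Setdb1 knockdown 2 were lower, Acsl3 (7.09 against 23.4) and Acsl4 (1.55 against 4.66). The median log2 ratio of the 9 compared was 0.08, -0.05 and -0.20 in the Pparg, Myod1 and Setdb1 comparisons, where all genes stood at -0.02, 0.02 and 0.00. Against the other control the list stood at 0.15, 0.31 and -0.01, so the Myod1 median changed sign.

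Lipid droplet and lipolysis genes store and release the fatty acid taken up. With Pparg expression 7 of 18 were higher and 0 lower, among them Plin2, a droplet coat protein (218 against 69.1), Lipe, the hormone-sensitive lipase (15.6 against 0.770), and Dgat1, which makes triglyceride (42.5 against 17.5). The median over the 14 compared was 1.02. With Myod1 expression 6 were higher and 1 lower: Mgll, a monoglyceride lipase, stood at 151 against 15.1 and Fitm1, a droplet protein of muscle, at 30.3 against 0.126, while Plin2 was lower (24.6 against 69.1, log2 ratio -1.46 but -0.91 against the other control). After Setdb1 knockdown 4 were higher (Plin2, Plin3, Pnpla2 and Lipe). Of these only Pnpla2, the adipose triglyceride lipase (58.4 against 22.9), was also past the limit against the other control (log2 ratio 1.31 and 1.05). The medians were 0.31 with Myod1 expression and 0.33 after Setdb1 knockdown. Against the other control the list medians were 1.17 (Pparg), 1.09 (Myod1) and 0.18 (Setdb1), and the Myod1 median was 0.08 after division by the column sum. Over all 18 genes the medians were 0.64 (Pparg), 0.07 (Myod1) and 0.20 (Setdb1).

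Fatty acid oxidation genes known as PPAR targets had 8 of 20 higher with Pparg expression and 7 of 20 with Myod1 expression, with 0 lower in either. Cpt1b and Pdk4 of this list had at most 3 reads in every library. Acadvl, the very long-chain acyl-CoA dehydrogenase, stood at 64.6 and 99.2 against 22.2 in the shared control, and Hadhb, of the trifunctional protein, at 45.6 and 51.9 against 18.9. Ech1 was past the limit with Pparg expression (101 against 39.0) and not with Myod1 expression (48.8). The medians over the 17 compared were 0.87 and 0.54, or 1.10 and 0.90 against the other control. Under division by the column sum, which moved the median of all genes in the Myod1 comparison from 0.02 to -0.27, the Myod1 median of this list was 0.17. After Setdb1 knockdown the list median was 0.48, or 0.19 against the other control and 0.32 over all 20 genes. There 2 of 20 genes were higher and 0 lower, and Acot2 was higher with a log2 ratio of 1.37 but 0.48 against the other control.

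Caveolae are membrane pits rich in cholesterol that have been linked to fatty acid uptake. With Myod1 expression 3 of 7 of their genes were higher and 1 lower. Cav3, the muscle caveolin, had an FPKM of 86.1 against 0 reads and Cavin4, its muscle partner, 12.1 against 0 reads, while Cav2 was lower (5.78 against 23.3). Cav2 was also lower after Setdb1 knockdown (6.14 against 22.9), and no gene of the list passed with Pparg expression. The medians over the 6 compared were 1.08, -0.03 and 0.32 for Myod1, Setdb1 and Pparg, or 1.37, -0.24 and 0.24 against the other control. Over all 7 genes they were 0.22, 0.00 and 0.14, and the Myod1 median of the 6 was 0.69 after division by the column sum. Of 10 lipoprotein receptors and Cd36 relatives, Lrp1 (3.66 against 20.0) and Lrp8 (1.15 against 4.44) were lower with Myod1 expression, 1 gene of the list was lower with Pparg expression, and 0 passed after Setdb1 knockdown. The medians over the 4 compared were -0.44 (Pparg), -0.80 (Myod1) and -0.52 (Setdb1), and against the other control 0.22, -0.70 and -1.002, so the Pparg median changed sign. Over all 10 genes, 6 of them under the minimum, the medians were -0.06, -0.05 and 0.00.

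Among 12 PPAR and RXR genes and their regulators 2 were higher with Pparg expression (Pparg itself and Cebpb), 2 with Myod1 expression (Ppara and Rxrg) and 1 after Setdb1 knockdown (Cebpb), where 4 were lower. The medians over the 11 compared were 0.00, 0.24 and 0.01, or 0.18, 0.51 and -0.01 against the other control, and over all 12 genes 0.00, 0.12 and 0.00, and the Myod1 median was -0.08 after division by the column sum. Ppara had an FPKM of 1.23 with Myod1 expression and at most 0.382 elsewhere, and Ppard stood between 10.2 and 18.4 in all 5. The partner receptor Rxra was present in all (17.4 to 52.5) and was lower after Setdb1 knockdown (17.4 against 38.4), as were Ppargc1a (2.76 against 10.6), Ncor1 (6.57 against 16.9) and Ppargc1b (log2 ratio -1.08, but -0.75 against the other control). Cebpa, which acts with Pparg in fat cells, had 0 reads in all 5 libraries.

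**Figure D5:**
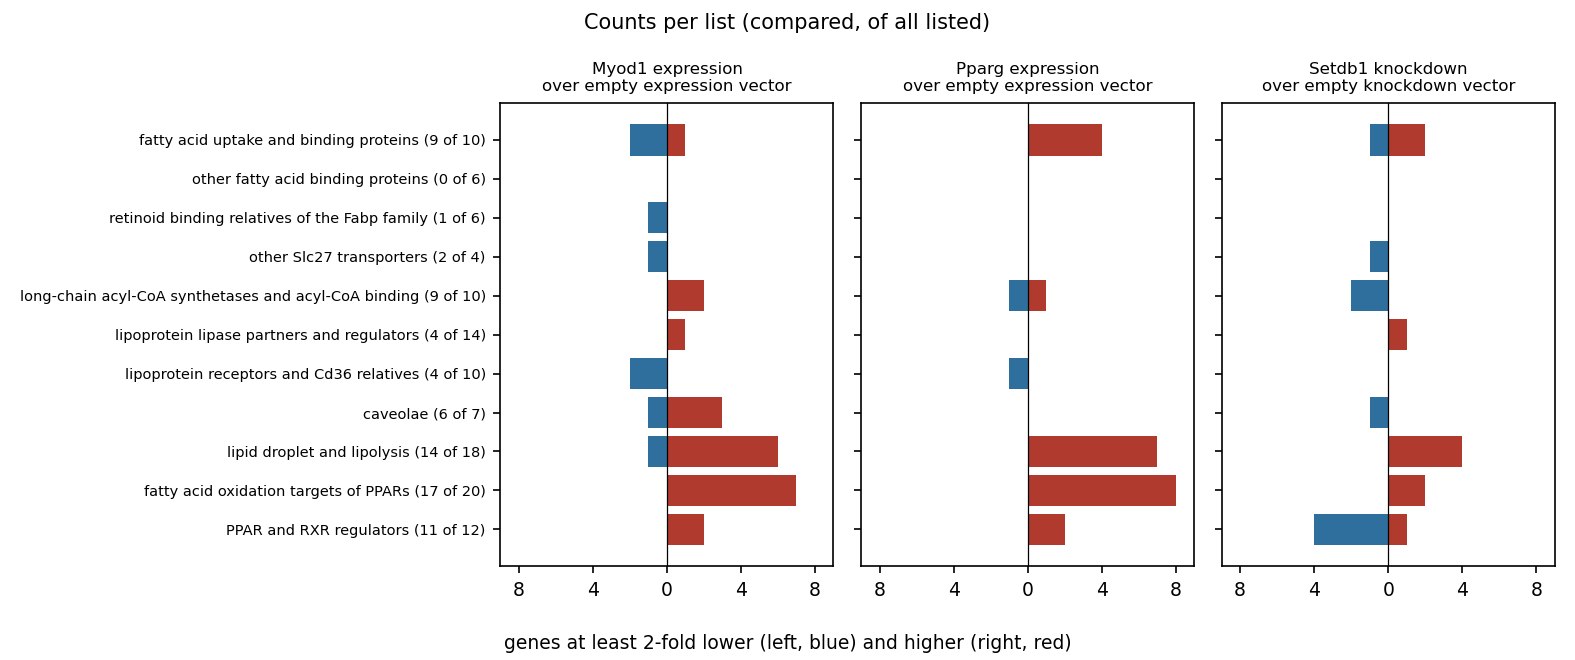
Number of genes at least 2-fold lower (left, blue) and higher (right, red) in the 10 genes and in 10 related lists, for the 3 treated comparisons, with the number compared of the number listed beside each name. Lipid droplet and oxidation genes reach 7 and 8 higher with Pparg expression and 6 and 7 with Myod1 expression.

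For each gene whose level spanned at least 1 on the log2(FPKM + 1) scale, the 3 genes with the closest pattern were found by Euclidean distance of centred values over the 5 libraries. Fabp4 and Cd36 were each other's nearest gene among all compared (distance 0.129), followed for both by Pparg itself (1.58 and 1.48) and Angptl4 (2.75 and 2.64). These genes had at most 4 reads in any library but the Pparg one and met the minimum only through it. Their closeness was therefore set in advance by their heights in that library. Near Angptl4 lay Gstt1 (0.780) and Mgst1 (0.843), both highest with Pparg expression. Fabp3 was nearest to Hspb7 (1.93), Jsrp1 (2.04) and Dusp27 (2.30), which reached 248, 319 and 66.8 with Myod1 expression. Fabp5 was nearest to Fads1, a fatty acid desaturase (0.162), and to the mitotic genes Kntc1 (0.290) and Bub1b (0.329). Slc27a1 was nearest to H1f0 (0.433), Ddit3 (0.521) and Wnk4 (0.537), each higher in the empty expression vector library than in the other control, and Slc27a4 to Rgs12 (0.0804), Fry (0.129) and Mlec (0.137). These distances rest on 5 points that share their libraries and are a description. Scarb1, Fabp7 and Lpl spanned less than 1 and were not matched.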

How the data were processed

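Per the submitters' processing notes the tools were CASAVA, HISAT2 and featureCounts 1.5.0-p3 with build GRCm38; their settings are not given in the sources used here. Libraries came from total RNA with the NEBNext Ultra RNA kit, per the labels' protocols. The authors deposited 1 table of FPKM values. Each value times gene length was a whole multiple (tolerance 0.0001) of 1 step per library for 100% of values above 0, which returned the reads. The authors' divisor was 0.859 to 1.10 times those reads, so values were already scaled between libraries. Positions matched GENCODE M21 for 98.3% of 54409 shared identifiers.

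Log2 ratios used FPKM + 1, an FPKM of at least 1 in any library and a 2-fold limit. A fold against 0 reads was taken against 3 reads in that library. Ratio and interval code was tested on simulated data. The 10 genes, the lists and the markers were chosen with earlier results of these data known. Named genes are the 10, the targeted genes, list and marker genes, and 3 pattern neighbours of each of the 10 that spans at least 1 on the log2 scale. Principal transcripts are those ranked first by APPRIS in M21, the longest where several were. Coding sequences were aligned with MAFFT 7.526 and in pairs with Biopython 1.88. SciPy 1.17.1 gave the intervals. Alternatives were a pseudocount of 0.1, other filters, a 4-fold limit, 2 other scalings and the other control. Transcript lengths were added after the data were seen. Some results on individual genes of the lists and pattern neighbours are not reported here.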

Additional observations from a re-analysis of the deposited data

How the results depend on the processing

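No paired analysis was possible because each group has 1 library, and for the same reason no library could be left out of a group. Of the ratios of the 10 genes past the limit, 1 changed direction: Slc27a1 with Myod1 expression had a log2 ratio of 0.14 against the other control. Below the limit Slc27a1 with Pparg expression turned from -0.71 to 0.88 and Scarb1 with Myod1 expression from -0.23 to 0.01 against that control, as did values of Angptl4 near 0. Apart from the first of these, 106 alternative log2 ratios of the 10 genes stayed within the counting interval of the reported value, the sign changes of Angptl4 included. Another 43 lay outside it, among them the sign changes of Slc27a1 with Pparg expression and of Scarb1 with Myod1 expression. Of the list medians 147 differed by any amount while 15 did not. At a 4-fold limit 1 of the 10 genes passed with Myod1 expression (Fabp3), 1 after Setdb1 knockdown (Fabp5) and 0 between the controls, and over all genes 608, 114, 310 and 36 passed in the Myod1, Pparg, Setdb1 and control comparisons, in place of 2768, 837, 2526 and 343. With a pseudocount of 0.1 these counts became 4044, 1729, 4027 and 952. Against both controls 538 genes passed with Pparg expression. Division by the column sum moved the share of higher genes from 64.8% to 73.1% with Pparg expression and from 47.5% to 40.8% after Setdb1 knockdown. The causes were not tested.

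With 1 library a group, spread between cultures is unknown and counting intervals are too narrow as a measure of it. Values under about 20 reads (Fabp3 and Cd36 in the controls, Angptl4 outside the Pparg library) set the wide intervals of their ratios.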
